A study of Gallus gallus with 9 samples.

Results

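The integrin and laminin genes of the early chick head were read in single-cell libraries, and their transcript levels were compared between germ layers and between stages. The members were taken by symbol: every gene whose upper-case symbol begins with ITGA or ITGB followed by a digit or V, or with LAMA, LAMB or LAMC followed by a digit. This gave 29 of the 16880 genes in the count matrices. They comprised 9 integrin alpha subunits (ITGA2, ITGA2B, ITGA3, ITGA4, ITGA6, ITGA8, ITGA9, ITGA11, ITGAV), 7 beta subunits (ITGB1, ITGB2, ITGB3, ITGB5, ITGB6, ITGB7, ITGB8) and 9 laminin chains (LAMA1, LAMA3, LAMA4, LAMA5, LAMB1, LAMB2, LAMB3, LAMB4, LAMC1). A further 4 members matched by symbol but are not integrin subunits. They are ITGB1BP1, a cytoplasmic protein that binds the tail of the beta 1 subunit, ITGB1BP2 (melusin), a muscle protein that binds the same tail, ITGB1BP3, and ITGB3BP, a centromere protein. Integrins and laminins that carry another symbol or none in the matrices were not analysed here.

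The 9 libraries come from wild-type chick embryos with no treatment. The paper describes slices of whole tissue at the level of the midbrain for the libraries from HH5 to 7ss, and the HH11 library was made by another protocol. The stages were HH5 (Hamburger-Hamilton stage 5, the end of gastrulation), then 1ss, 4ss and 7ss (embryos with 1, 4 or 7 pairs of somites) with 2 libraries each, and HH11 with 1 library. Slices of several embryos were pooled in each library from HH5 to 7ss, so the p-values measure the spread between pools and not between embryos. With few libraries per test, part of that spread is borrowed from other genes. Values are UMI counts (distinct captured RNA molecules), given below as CPM (counts scaled to 1000000 UMIs of a summed class of cells), and they do not rank one gene against another.

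Laminins are cross-shaped proteins of an alpha, a beta and a gamma chain that assemble into the basement membrane under epithelia. Integrins are receptors of an alpha and a beta subunit that bind laminin, fibronectin, collagen or other matrix proteins and couple them to the cytoskeleton. In the embryo the neural plate, the surface ectoderm and the endoderm rest on basement membranes, mesoderm moves between them, and neural crest cells leave the neural tube and migrate through matrix rich in fibronectin. Roles given for single genes below are known mainly from mouse and human work.

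A cell was assigned to a class by 1 marker. It was called neural with at least 1 UMI of SOX21, non-neural (ectoderm) with DLX5, crest with FOXD3, mesoderm with TWIST1 or endoderm with SOX17, in each case with no UMI of the other 4. Of 93387 cells that passed the filters (5287 to 18791 per library, with a median of 1130 to 4485 UMIs per cell), 18100 were neural, 5450 non-neural, 488 crest, 7583 mesoderm and 1746 endoderm. Counts were summed over the cells of a class in a library where it held at least 50 cells, which gave 36 sums of 317274 to 20033023 UMIs. Endoderm sums existed at HH5, 1ss and 4ss, and crest sums in HH5 replicate 1 and both 7ss libraries. On the wider marker lists the mesoderm and endoderm sums from HH5 to 7ss followed their labels: the mesoderm list reached 482 to 1295 CPM in mesoderm sums and 16.7 to 52.4 CPM in neural sums, and the endoderm list reached 1394 to 8886 CPM in endoderm sums and 356 to 1253 CPM in neural sums. Endoderm sums held 22.3 to 325 CPM of the mesoderm list, and mesoderm sums held 311 to 612 CPM of the endoderm list. The notochord and node list had 340 to 687 CPM in endoderm, 74.1 to 398 CPM in mesoderm and 52.9 to 136 CPM in neural sums. The neural list reached 128 to 936 CPM in neural sums and at most 37.8 CPM in mesoderm and endoderm sums. It overlapped the other ectoderm classes, with 96.0 to 272 CPM in non-neural and 138 to 223 CPM in crest sums. The non-neural ectoderm list did not separate its class from endoderm, with 1370 to 2508 CPM in non-neural sums and 1376 to 3740 CPM in endoderm sums. The FOXD3 cells of HH5 replicate 1 went against their name, with 78.7 CPM over the crest list and 980 CPM over the notochord and node list, so they were kept out of the tests. In the neural sums, the correlation across genes between 4ss replicate 2 and 4ss replicate 1 was 0.939, and between 4ss replicate 2 and each 7ss library it was 0.979 or 0.977. HH5 replicate 1 correlated at 0.944 with HH5 replicate 2, and at 0.966 and 0.968 with the 1ss libraries. Any 2 libraries shared at most 0.594% of the barcodes of the smaller one.

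Of the 29 members, 20 reached 5 CPM in at least 1 sum. The other 9 stayed at or under 4.79 CPM in every sum, with 2 to 613 UMIs in all cells together. They were LAMB3, LAMA3, ITGB7, LAMB4, ITGB2, ITGB6, ITGA2, ITGA2B and LAMB2. LAMA3 and LAMB3 belong to the laminin of skin, ITGB2 and ITGB7 to receptors of white blood cells, and ITGA2B to the platelet receptor. LAMB3 had 0 UMIs in every sum. ITGB1, the beta subunit shared by most laminin and fibronectin receptors, was read in every class, between 107 and 365 CPM. Among the laminin chains, LAMB1 lay between 97.0 and 338 CPM over the 36 sums and LAMC1 between 10.5 and 48.9 CPM. LAMB1 and LAMC1 are the beta and gamma chains of most embryonic laminins.

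**Figure D1:**
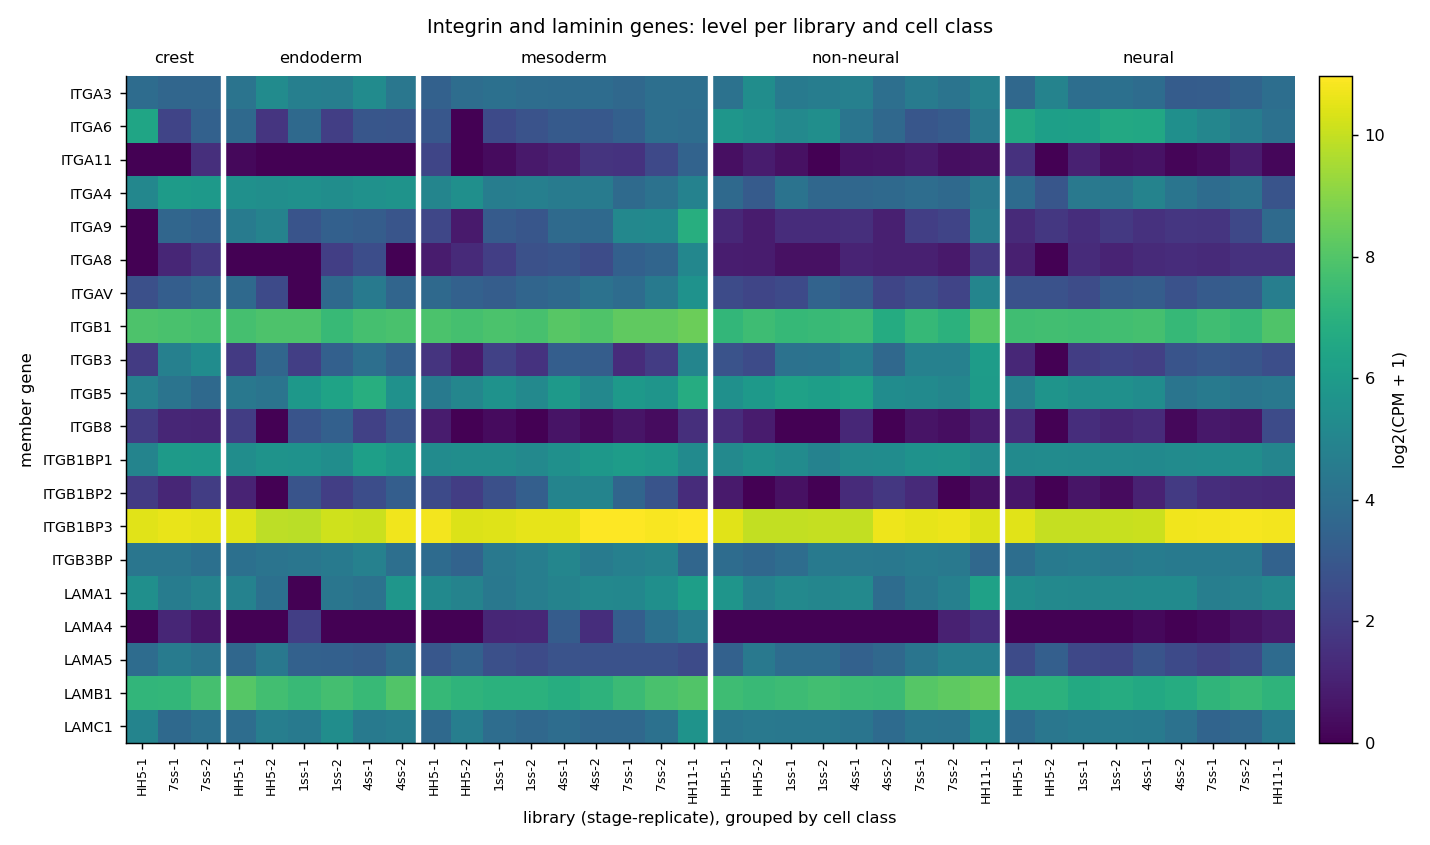
Level of the 20 members that reached 5 CPM in some sum, as log2(CPM + 1) by colour. Each column is 1 library, grouped by cell class, and each line of the map is a gene. ITGA6 is bright in neural and early non-neural columns and dark in endoderm and mesoderm columns, LAMA4 is read mainly in later mesoderm columns, and ITGB1, LAMB1 and ITGB1BP3 are present in all columns.

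The first comparison set mesoderm against neural cells of the same 8 libraries from HH5 to 7ss. The same neural sums serve in the comparisons of endoderm, non-neural and crest cells that follow, so these share their values. Mesoderm held less of ITGA6, an alpha subunit of laminin receptors, and more of ITGA9, ITGA8 and ITGAV, subunits of receptors for fibronectin, tenascin and related proteins. It also held more ITGB1, which laminin and fibronectin receptors share, and more LAMA4, the laminin alpha chain of vessels and mesenchyme. ITGA3, another subunit of laminin receptors, and ITGA4, a subunit of fibronectin receptors, did not pass the test. Of the 23 members tested, 11 were higher in mesoderm (22.2% of all 10962 genes tested were) and 4 were lower (19.6% of all genes). The median log2 difference of the members was 0.33, and that of all genes 0.01.

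ITGA6 ranged from 0 to 15.1 CPM (median 6.99) in mesoderm sums and from 23.4 to 97.8 CPM (median 73.5) in neural sums. The groups did not overlap, and every library had less in mesoderm (log2 difference -2.90 ± 0.38, SE, n = 8 libraries, edgeR adjusted p = 7.07e-05). Barcodes with at most 100 UMIs, which carry free RNA, held 9.38 to 39.7 CPM of ITGA6, a level at or above that in many mesoderm sums.

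ITGA9, whose receptor binds tenascin and osteopontin, had 0.743 to 36.1 CPM (median 10.3) in mesoderm and 1.48 to 4.24 CPM (median 2.29) in neural sums. It was higher in mesoderm in 7 of 8 libraries (2.56 ± 0.29, adjusted p = 2.24e-05), and HH5 replicate 2 was the exception. ITGA8, a receptor subunit for nephronectin and fibronectin, had 0.809 to 11.1 CPM (median 5.20) in mesoderm and 0 to 2.00 CPM (median 1.45) in neural sums (1.89 ± 0.28, adjusted p = 0.000174). In both genes the HH5 mesoderm sums did not exceed the neural range, and those from 1ss on lay above it. ITGAV, which pairs with several beta subunits, averaged 13.2 ± 4.15 CPM in mesoderm and 6.80 ± 1.44 CPM in neural sums (SD, n = 8 each), and was higher in 8 of 8 libraries (0.96 ± 0.12, adjusted p = 6.33e-05). ITGB1 averaged 255 ± 40.7 CPM in mesoderm and 190 ± 16.6 CPM in neural sums, a difference of 0.43 ± 0.08 on the log2 scale (adjusted p = 0.000654). The smaller ITGB1 difference also held in 8 of 8 libraries, with ranges that overlapped. ITGA11, a collagen receptor subunit, passed the test at low levels, with at most 4.35 CPM in mesoderm and 2.00 CPM in neural sums (1.68 ± 0.47, adjusted p = 0.0138). ITGA2, also a collagen receptor subunit, passed in the other direction at low levels (-1.50, adjusted p = 0.00149). ITGB8 (-1.27, adjusted p = 0.0336) and LAMB2 (-1.17, adjusted p = 0.0347) were lower in mesoderm as well. These 3 calls were lost in 1 of 18, 4 of 14 and 5 of 14 alternatives.

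LAMA4 gave 252 UMIs in the 8 mesoderm sums and 12 in the neural sums. Its mesoderm level lay between 0 and 15.4 CPM (median 1.54) and its neural level reached 0.399 CPM at most (5.48 ± 0.33, adjusted p = 6.01e-07). In those mesoderm sums the endothelium and blood marker list (7 genes) held 22.8 to 127 CPM, against 7.72 to 17.4 CPM in neural sums. When mesoderm cells with a UMI of that list or of the cardiac list were left out, LAMA4 remained higher by 5.09 (adjusted p = 1.59e-05). That step kept from 374 of 1015 mesoderm cells (4ss replicate 1) to 363 of 582 (HH5 replicate 2). The kept cells had a lower median of UMIs in every library, and such cells can carry these markers unread. The part of vessel or cardiac cells was therefore not tested. LAMB1 was slightly higher in mesoderm, at 151 ± 36.4 CPM against 124 ± 24.2 CPM (0.28 ± 0.04, adjusted p = 0.000227), in 8 of 8 libraries. LAMA1, the alpha chain of the first embryonic basement membranes, averaged 31.0 CPM in mesoderm and 33.6 CPM in neural sums and did not pass the test (-0.10 ± 0.13, adjusted p = 0.588), nor did LAMC1 (-0.24 ± 0.14, adjusted p = 0.203). LAMA5, the alpha chain of many epithelia, was called higher in mesoderm at 0.36 ± 0.12 (adjusted p = 0.0299), but the call was lost in 11 of 18 alternatives and the sign turned in 1, classes from marker lists (-0.36, adjusted p = 0.286).

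ITGB1BP1 was slightly higher in mesoderm (0.33 ± 0.08, adjusted p = 0.00645), in 7 of 8 libraries. ITGB1BP2 had 2.97 to 30.0 CPM (median 7.65) in mesoderm and 0 to 2.64 CPM (median 0.838) in neural sums (3.31 ± 0.30, adjusted p = 3.32e-06), and the groups did not overlap. The cardiac marker list (8 genes) in the same mesoderm sums held 176 to 1080 CPM, with its highest levels, 1080 and 887 CPM, in the 4ss libraries, where ITGB1BP2 was also highest, at 29.7 and 30.0 CPM. Without cells that carry a cardiac or endothelium marker the difference was 1.68 (adjusted p = 0.000645).

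Partners of these receptors were read in the same comparison, where 22.2% of all genes tested were higher in mesoderm and 19.6% lower. Of 15 tested other integrin ligands 13 were higher and 1 lower in mesoderm (median log2 1.49), of 10 basement membrane partners 6 and 2 (0.61), and of 19 integrin adaptors, which link the receptors to actin, 10 and 1 (0.33). The largest were POSTN (periostin, 5.18), FREM1 (4.40) and COL1A1 (a fibrillar collagen chain, 3.73). The largest in the other direction were VTN (vitronectin, -1.11), LIMS2 (-0.78) and DAG1 (dystroglycan, a laminin receptor outside the integrin family, -0.69).

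Endoderm was compared with neural cells of the same suspensions. ITGA6 was lower in endoderm, while ITGA3, another alpha subunit of laminin receptors, was higher, as were ITGA4, ITGA9, LAMA5 and LAMB1. Of 19 members tested in the 6 libraries from HH5 to 4ss, 10 were higher in endoderm (14.5% of all 10133 genes) and 1 was lower (15.4% of all genes), with a median log2 difference of 0.52 beside -0.04 for all genes. The endoderm sums also held 17.8 to 597 CPM of the endothelium and blood list, highest at 4ss with 597 and 241 CPM, against 7.72 to 17.4 CPM in neural sums. Of the cardiac list, which includes the endoderm genes GATA5 and GATA6, they held 236 to 1094 CPM, against 16.6 to 70.8 CPM in neural sums.

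ITGA6 had 2.23 to 12.6 CPM (median 6.59) in endoderm and 43.5 to 97.8 CPM (median 84.0) in neural sums (-3.18 ± 0.20, adjusted p = 3.62e-10). ITGA4, whose receptors bind fibronectin and VCAM1, had 40.1 to 48.5 CPM (median 44.3) in endoderm and 6.55 to 28.9 CPM (median 19.1) in neural sums (1.35 ± 0.19, adjusted p = 2.16e-05). Neither gene overlapped between the classes, and ITGA4 varied little among the endoderm sums. ITGA9 also did not overlap, with 6.30 to 29.0 CPM against 1.48 to 2.53 CPM (2.67 ± 0.39, adjusted p = 2.94e-05), and its 2 highest endoderm values were those of HH5. Its 1ss endoderm values rested on 2 and 3 UMIs. Their 95% counting intervals (0.763 to 22.8 and 1.91 to 27.0 CPM) reached into the neural range. ITGA3 averaged 27.3 ± 9.02 CPM in endoderm and 15.4 ± 7.00 CPM in neural sums (0.87 ± 0.19, adjusted p = 0.00178), higher in 6 of 6 libraries although the ranges overlapped.

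LAMB1 averaged 210 ± 42.6 CPM in endoderm and 114 ± 15 CPM in neural sums, with no overlap (0.88 ± 0.09, adjusted p = 6.36e-07). LAMA5 averaged 11.9 ± 4.32 CPM against 5.41 ± 1.93 CPM (1.18 ± 0.26, adjusted p = 0.00179), higher in 6 of 6 libraries. ITGB1BP1 was higher in 6 of 6 libraries at 0.44 ± 0.14 (adjusted p = 0.027). ITGAV (0.85 ± 0.30, adjusted p = 0.0372), ITGB3 (1.36 ± 0.42, adjusted p = 0.0185), ITGB8 (2.11 ± 0.60, adjusted p = 0.0123) and ITGB1BP2 (1.87 ± 0.56, adjusted p = 0.0169) passed on small endoderm sums in which 1 or more libraries lay near 0 or within the neural range. Without 4ss replicate 1, ITGB3 fell short of the threshold (1.13, adjusted p = 0.0882), and so did ITGAV (0.71, adjusted p = 0.144). Without endoderm cells that hold an endothelium and blood marker, ITGB1BP1 (0.27, adjusted p = 0.311), ITGB3 (0.94, adjusted p = 0.291) and ITGB8 (2.07, adjusted p = 0.0567) did not pass, while ITGA9 (2.86) and ITGA4 (1.38) did. Cells with a cardiac marker stayed in the endoderm class. That fit lacked 1ss replicate 1, whose endoderm class then held 44 cells. With classes from marker lists LAMB1 (0.11, adjusted p = 0.461), LAMA5 (0.35, adjusted p = 0.337), ITGA4 (0.30, adjusted p = 0.176), ITGB1BP1 (0.09, adjusted p = 0.552), ITGAV, ITGB8 and ITGB3 did not pass. ITGA6 (-0.99), ITGA9 (1.33), ITGA3 (0.46) and ITGB1BP2 (1.72) passed there, each with a smaller difference than in the main fit. The list classes covered 8 libraries. In the main fit LAMA1, LAMC1, ITGB1 and ITGB5 did not pass.

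Set against mesoderm of the same 6 libraries, endoderm had 6 members higher (12.3% of all 9337 genes) and 2 lower (11.2% of all genes) of 18 tested, with a median of 0.48 beside -0.03 for all genes. ITGA3 had 17.7 to 38.7 CPM (median 24.9) in endoderm and 9.54 to 15.3 CPM (median 13.8) in mesoderm, with no overlap (1.00 ± 0.19, adjusted p = 0.000701). LAMB1 likewise did not overlap, at 165 to 270 CPM in endoderm and 114 to 162 CPM in mesoderm (0.66 ± 0.09, adjusted p = 1.22e-05). ITGA4 (0.72 ± 0.15, adjusted p = 0.00203), LAMA5 (0.87 ± 0.24, adjusted p = 0.0132) and LAMC1 (0.66 ± 0.22, adjusted p = 0.0331) were higher in endoderm with overlapping ranges. ITGB8 was higher too, at a median of 4.83 CPM against 0.236 CPM (3.38 ± 0.71, adjusted p = 0.00196), while ITGB1BP2 (-1.86 ± 0.32, adjusted p = 0.000286) and ITGB1BP3 (-0.41 ± 0.05, adjusted p = 1.85e-05) were lower. LAMC1 was lost in 9 of 16 alternatives, among them without either 1ss or either 4ss library (adjusted p 0.0615 to 0.109), LAMA5 in 5 and ITGA4 in 4, and LAMA5 did not pass without HH5 replicate 1. With classes from marker lists LAMB1 turned to -0.05 (adjusted p = 0.796) and ITGA4 was 0.22 (adjusted p = 0.348). Another fit left out mesoderm cells with a cardiac or endothelium marker, and endoderm cells with an endothelium and blood marker only. There ITGA4 was 0.58 (adjusted p = 0.0502) and LAMA5 0.84 (adjusted p = 0.115). The list classes also covered both 7ss libraries, and the fit without marked cells had 5 libraries.

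Fibronectin (FN1) averaged 921 ± 232 CPM in endoderm, against 85.7 ± 31.1 CPM in neural sums (3.48 ± 0.13, adjusted p = 2.78e-13). Against neural cells, 14.5% of all genes tested were higher in endoderm and 15.4% lower. Of the lists, other integrin ligands had 10 higher and 0 lower of 14 tested against neural cells (median 1.71). Basement membrane partners had 5 and 0 of 10 (0.57), and integrin adaptors 2 and 2 of 16 (0.10). The largest were POSTN (6.33), SPP1 (osteopontin, 6.02) and FREM1 (3.72), and LIMS1 (-0.72) and PARVB (-0.68) were lower. Against mesoderm, 12.3% of all genes tested were higher in endoderm and 11.2% lower. There 4 ligands were higher and 2 lower of 14. Of 10 basement membrane partners 1 was higher and 2 lower, and of 15 adaptors 0 were higher and 6 lower. SPP1 (5.22), FN1 (3.16) and FBLN1 (fibulin, 1.90) led the higher ones, and COL1A1 (-2.20), COL4A2 (-1.87) and COL4A1 (-1.81), the collagen chains of basement membranes, led the lower ones.

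Non-neural ectoderm, which forms the surface ectoderm and placodes, was compared with neural cells next. The beta subunits ITGB3 and ITGB5, which pair with ITGAV, were higher, as were the laminin chains LAMA5 and LAMB1 and the laminin receptor subunit ITGA3, while ITGA6, ITGA4 and ITGB1 were lower. Of 20 members tested, 5 were higher (17.9% of all 10671 genes) and 3 lower (17.0% of all genes). The median log2 difference of the members was -0.13, beside -0.02 for all genes.

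ITGB3 had 4.72 to 27.3 CPM (median 16.9) in non-neural and 0 to 7.38 CPM (median 3.36) in neural sums (2.11 ± 0.19, adjusted p = 9.26e-07). LAMA5 had 9.52 to 25.3 CPM (median 13.6) in non-neural and 3.50 to 9.01 CPM (median 4.47) in neural sums (1.67 ± 0.20, adjusted p = 1.68e-05). All 8 libraries showed both differences, and the LAMA5 ranges did not overlap. LAMB1 did not overlap either, at 171 to 299 CPM (median 187) in non-neural and 97.0 to 168 CPM (median 121) in neural sums (0.81 ± 0.06, adjusted p = 1.16e-07). ITGB5 averaged 55.0 ± 19.5 CPM against 32.7 ± 12.9 CPM (0.85 ± 0.08, adjusted p = 1.49e-06) and ITGA3 averaged 22.9 ± 7.96 CPM against 13.9 ± 6.55 CPM (0.83 ± 0.11, adjusted p = 4.54e-05), each higher in 8 of 8 libraries. ITGA6 had 6.73 to 52.6 CPM (median 26.6) in non-neural and 23.4 to 97.8 CPM (median 73.5) in neural sums, lower in 8 of 8 libraries with overlapping ranges (-1.40 ± 0.16, adjusted p = 1.26e-05). ITGB1 was lower in 8 of 8 libraries by a small amount (-0.25 ± 0.05, adjusted p = 0.00119). The ITGB1 call was lost with classes from marker lists (-0.11, adjusted p = 0.177) and with no library term (adjusted p = 0.171). With no library term ITGA6 did not pass either (adjusted p = 0.0571). ITGA4 was lower at -0.40 ± 0.14 (adjusted p = 0.0374), a call that was lost without either 1ss library, either 4ss library or 7ss replicate 2 (adjusted p 0.0536 to 0.137).

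FN1 averaged 570 ± 93.3 CPM in non-neural and 79.1 ± 29.3 CPM in neural sums (2.99 ± 0.17, adjusted p = 1.29e-08). In this comparison 17.9% of all genes tested were higher in non-neural cells and 17.0% lower. The ligands had 6 higher and 3 lower of 13 tested (median 0.32). The basement membrane partners had 5 and 2 of 10 (0.27), and the adaptors 10 and 0 of 19 (0.42). FBN2 (fibrillin, 3.05), FN1 and FREM2 (1.40) were the largest, and COL1A2 (-1.99), SMOC1 (-1.89) and VTN (-0.80) the largest in the other direction.

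With FOXD3 as the marker, neural crest could be tested at 7ss alone, where the FOXD3 classes of the 2 libraries held 93 and 211 cells. At 4ss they held 7 and 32 cells and were left out. Crest cells carried more ITGB3, ITGA4, ITGA9 and LAMA5 than neural cells and less ITGA6. Of 20 members tested, 6 were higher (6.40% of all 10153 genes) and 2 lower (7.70% of all genes), with a median of 0.34 beside 0.00 for all genes.

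ITGA4 had 64.6 and 58.7 CPM in crest, against 13.7 and 16.3 CPM in neural sums of 7ss replicates 1 and 2 (2.03 ± 0.19, adjusted p = 3.74e-17). ITGB3 had 26.1 and 38.9 CPM in crest, against 7.38 and 6.59 CPM in neural sums (2.30 ± 0.27, adjusted p = 4.59e-12). LAMA5 had 22.4 and 17.4 CPM in crest, against 3.50 and 4.44 CPM in neural sums (2.28 ± 0.33, adjusted p = 1.56e-08). In each of the 3 genes both crest values lay far above both neural values. ITGA9 had 11.2 and 9.58 CPM, against 2.23 and 4.24 CPM (1.58 ± 0.41, adjusted p = 0.00265), and ITGA6 had 3.73 and 9.58 CPM, against 31.8 and 23.4 CPM (-1.76 ± 0.31, adjusted p = 3.58e-06). ITGB1BP1 (0.61 ± 0.17, adjusted p = 0.00429), ITGB1 (0.32 ± 0.09, adjusted p = 0.00479) and ITGB1BP3 (-0.20 ± 0.05, adjusted p = 0.000989) also passed. With DESeq2 in place of edgeR 4 of the 8 members passed, and ITGA9 was among those that did not (1.74, adjusted p = 0.193). With 2 libraries and a library term, the spread behind these p-values came mostly from other genes, so very small values overstate the evidence from 2 pools. With edgeR and no library term ITGA4, ITGB3 and LAMA5 passed (adjusted p = 0.00291, 0.00558 and 0.0118). ITGA9 (0.126), ITGA6 (0.0547), ITGB1 (0.324), ITGB1BP1 (0.0987) and ITGB1BP3 (0.411) did not. LAMB1, LAMA1 and LAMC1 did not pass, with LAMB1 at 153 and 208 CPM in crest, against 144 and 168 CPM in neural sums (0.25 ± 0.09, adjusted p = 0.0515).

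Against neural cells, 6.40% of all genes tested were higher in crest and 7.70% lower. Among the ligands 8 were higher and 2 lower of 13 tested (median 1.25). The higher ones were led by TNC (tenascin C, 3.50), POSTN (3.22) and FBN2 (1.89), and TGFB2 (-1.59) and VTN (-0.86) were lower. The adaptors had 5 higher and 0 lower of 19 (0.14) and the basement membrane partners 2 and 2 of 10 (0.03), with AGRN (agrin) at -0.72.

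**Figure D2:**
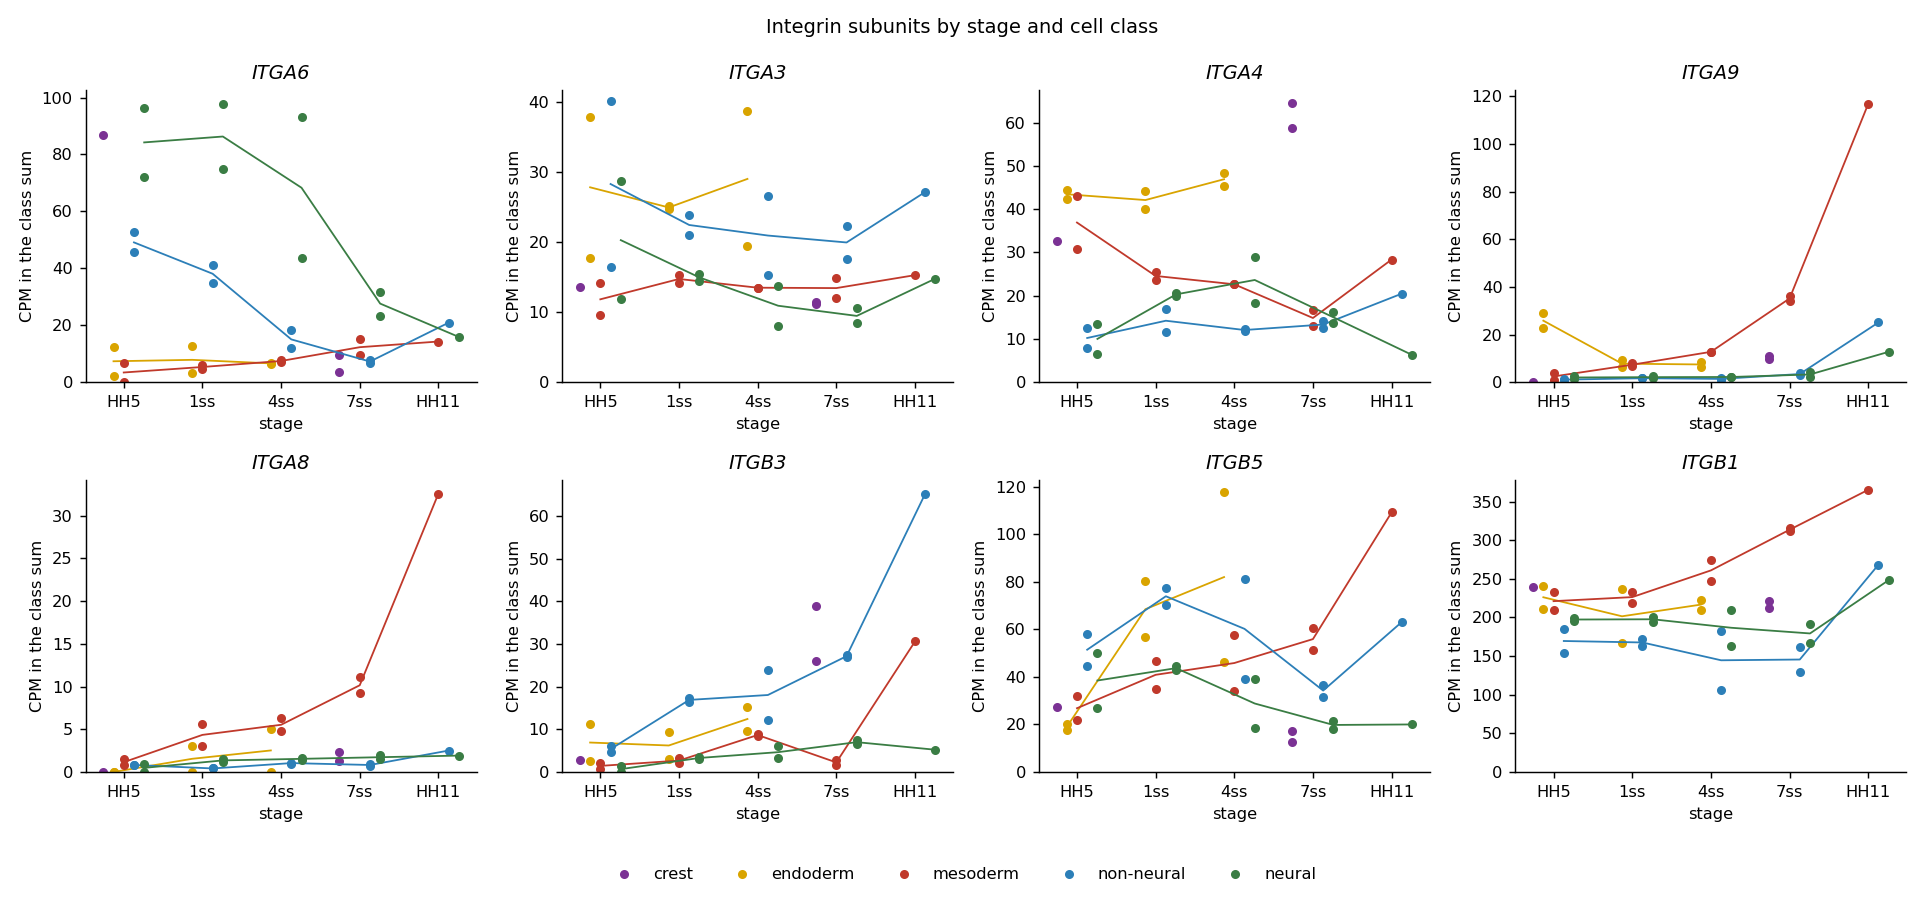
CPM of 8 integrin subunits (vertical axes, each from 0) by stage (horizontal axes). Points are single libraries coloured by cell class, and lines join the stage means of a class, except in crest. Neural ITGA6 lies at 72.0 CPM or more at HH5 and 1ss and at 31.8 CPM or less at 7ss, mesoderm ITGA9 and ITGA8 have their highest points at HH11, and the crest points of ITGA4 and ITGB3 at 7ss lie above the neural points.

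The stages 7ss and HH5 were then compared within each class, first in neural cells. Of 21 members tested, 1 was higher at 7ss (3.24% of all 11077 genes) and 1 lower (4.45% of all genes), with a median change of 0.13. ITGA6 had 31.8 and 23.4 CPM at 7ss, against 96.4 and 72.0 CPM at HH5 (-1.58 ± 0.34, adjusted p = 0.0243). ITGB3 had 7.38 and 6.59 CPM at 7ss, against 1.33 and 0 CPM at HH5 (2.64 ± 0.57, adjusted p = 0.025). The stages did not overlap in either gene. Barcodes with at most 100 UMIs held 8.97 and 13.4 CPM of ITGB3 at 7ss, above the neural sums, and 1.27 and 0.505 CPM at HH5. With free RNA subtracted at 10% of each sum, the ITGB3 change was 2.56 (adjusted p = 0.0423). The part of free RNA in these values was not tested further. At 4ss the 2 libraries stood apart for ITGA6, with 93.1 CPM in replicate 1 and 43.5 CPM in replicate 2. Both calls were lost when any single HH5 or 7ss library was left out (adjusted p 0.0548 to 0.169 for ITGA6 and 0.0664 to 0.132 for ITGB3), and with a term for 4ss replicate 2 and the 7ss libraries against the rest the changes were -0.63 and 1.51 (adjusted p = 0.692 and 0.462).

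Non-neural cells showed the same pair of members on the same side. Of 15 tested, 1 was higher (2.90% of all 9309 genes) and 1 lower (3.20% of all genes). ITGA6 had 6.73 and 7.76 CPM at 7ss, against 52.6 and 45.6 CPM at HH5 (-2.73 ± 0.31, adjusted p = 0.000992). ITGB3 had 26.9 and 27.3 CPM at 7ss, against 5.98 and 4.72 CPM at HH5 (2.31 ± 0.36, adjusted p = 0.00637), and the call held in all 18 alternatives. The crest list in the same non-neural sums held 325 and 345 CPM at 7ss, against 106 and 154 CPM at HH5, and its part in the ITGB3 values was not tested. Over HH5, 1ss, 4ss and 7ss the ITGA6 stage means ran downward in this class, and the call was lost in 1 alternative, the term for the set of libraries (-2.33, adjusted p = 0.0513). LAMB1 had 272 and 299 CPM at 7ss, against 190 and 171 CPM at HH5, and did not pass (0.70 ± 0.21, adjusted p = 0.0687).

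At 7ss, 3.24% of all genes tested were higher and 4.45% lower in neural cells, and 2.90% and 3.20% in non-neural cells. In neural cells 14 ligands, 10 basement membrane partners and 20 adaptors were tested. The calls were FBLN1 (1.21) and TGFB2 (2.41), both higher at 7ss. Non-neural cells had FBLN2 (2.48) and FBLN1 (1.45) higher and TGFB2 (-1.90) and THBS1 (-1.49) lower of 12 ligands, and COL4A1 (-1.78) and DAG1 (-1.50) lower of 9 basement membrane partners.

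In mesoderm more members passed the test of stage than in the other classes. Of 19 tested, 5 were higher at 7ss (5.45% of all 9911 genes) and 1 was lower (5.90% of all genes), with a median of 0.45 beside 0.02 for all genes. ITGA9, ITGA8, LAMA4, ITGB5 and ITGB3BP rose, and ITGA4 fell.

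ITGA9 had 34.1 and 36.1 CPM at 7ss, against 4.04 and 0.743 CPM at HH5 (3.40 ± 0.41, adjusted p = 0.000601). It had 7.90 and 6.75 CPM at 1ss and 12.9 and 12.6 CPM at 4ss, so each stage from 1ss on lay above the one before it. The call held in all 19 alternatives. HH5 replicate 2 was the library with the fewest UMIs, with 1345896 in its mesoderm sum, so its low CPM values rest on few UMIs. ITGA8 had 9.21 and 11.1 CPM at 7ss, against 0.809 and 1.49 CPM at HH5 (3.30 ± 0.56, adjusted p = 0.00477), with 3.06 to 6.26 CPM at 1ss and 4ss. LAMA4 had 183 UMIs in the 7ss mesoderm sums and 0 in those of HH5, at least 28.9-fold higher at 7ss against a floor of 3 counts over the group (adjusted p = 0.00443). Its level was 8.67 and 15.4 CPM at 7ss, 8.03 and 1.74 CPM at 4ss, and 1.27 and 1.35 CPM at 1ss. In the same order of stages and replicates from HH5 to 7ss, the endothelium and blood list held 22.8 and 24.5, 47.7 and 27.2, 127 and 63.3, and 115 and 108 CPM in mesoderm sums, and its part in the LAMA4 values was not tested beyond the call kept without cells that hold such a marker (adjusted p = 0.0166). Without HH5 replicate 1, ITGA8 and LAMA4 no longer passed (adjusted p = 0.0761 and 0.0617).

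ITGA4 had 12.9 and 16.8 CPM at 7ss, against 30.7 and 43.1 CPM at HH5 (-1.34 ± 0.28, adjusted p = 0.013). The 1ss and 4ss sums lay between, at 22.6 to 25.4 CPM. The call was lost without HH5 replicate 2, 7ss replicate 1 or 7ss replicate 2. It was also lost with the term for the set of libraries (-1.37, adjusted p = 0.203). ITGB5 (51.1 to 60.7 CPM at 7ss, against 21.7 to 31.9 CPM at HH5, 1.06 ± 0.31, adjusted p = 0.0466) and ITGB3BP (1.11 ± 0.30, adjusted p = 0.035) passed narrowly and were lost in 11 of 19 alternatives each. ITGA6 stayed low and did not pass, at 9.43 and 15.1 CPM at 7ss, against 6.79 and 0 CPM at HH5 (1.31 ± 0.60, adjusted p = 0.168). LAMA1, LAMA5, LAMB1 and LAMC1 did not pass. Of all mesoderm genes tested, 5.45% were higher at 7ss and 5.90% lower. The ligands had 5 higher and 0 lower of 15 tested, led by COL3A1 (4.62), POSTN (2.30) and COL1A1 (1.91). Of the basement membrane partners SPARC was higher (1.49), and of the adaptors ZYX (zyxin, 1.00) was higher and CD151, a membrane partner of laminin-binding integrins, was lower (-1.32).

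**Figure D3:**
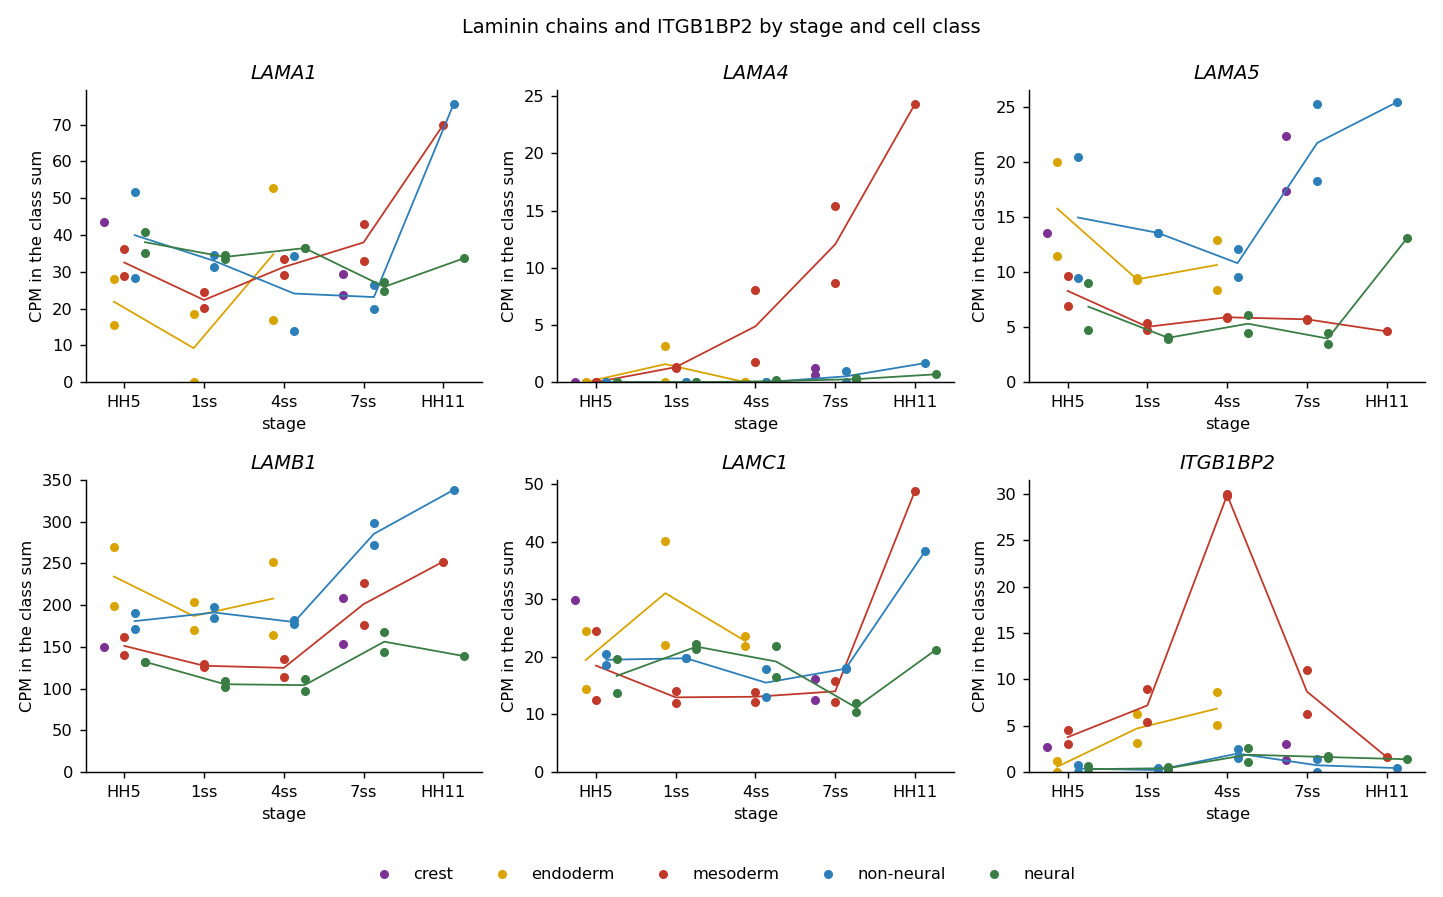
CPM of 5 laminin chains and ITGB1BP2 (vertical axes, each from 0) by stage (horizontal axes), with points for single libraries coloured by cell class and lines through the stage means of a class, except in crest. LAMA4 is near 0 outside mesoderm, non-neural LAMA5 and LAMB1 lie above the neural points from HH5 to 7ss, and mesoderm ITGB1BP2 has its highest points at 4ss, 29.7 and 30.0 CPM.

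The stage change itself was then compared between mesoderm and neural cells in 1 model with the library as a block. Of 23 members tested, 7 had the higher 7ss minus HH5 change in mesoderm (8.18% of all 10962 genes) and 3 the lower (8.90% of all genes), with a median of 0.47 beside 0.00 for all genes. The vitronectin receptor subunit ITGB5 differed with the smallest p (1.83 ± 0.20, adjusted p = 2.05e-06). Its level was 60.7 and 51.1 CPM in mesoderm at 7ss, against 21.7 and 31.9 CPM at HH5, and 21.5 and 18.1 CPM in neural sums at 7ss, against 27.0 and 49.9 CPM at HH5. ITGA6 differed by 2.81 ± 0.41 (adjusted p = 6.63e-05), with lower neural levels at 7ss and low mesoderm levels at both stages. ITGA9 (2.20 ± 0.57, adjusted p = 0.0107), ITGA8 (2.34 ± 0.80, adjusted p = 0.049), ITGA3 (0.95 ± 0.29, adjusted p = 0.029), LAMA1 (0.66 ± 0.18, adjusted p = 0.0133) and ITGB1 (0.54 ± 0.12, adjusted p = 0.00277) also had the higher change in mesoderm. ITGB3 (-2.49 ± 0.72, adjusted p = 0.0218), ITGA4 (-1.53 ± 0.28, adjusted p = 0.000663) and ITGB1BP3 (-0.31 ± 0.10, adjusted p = 0.0481) had the lower. With the library term left out, 0 members and 132 genes passed, and 9 members had an unadjusted p under 0.05. DESeq2 called 5 members and 789 of 10962 genes. Without HH5 replicate 1 the ITGA8 value turned to -4.14. Of 18 alternatives, the ITGB1BP3 call was lost in 13, ITGA3 in 9, LAMA1 and ITGA8 in 7 each, ITGB3 in 6, ITGA9 in 4, ITGB1 in 2, and ITGB5, ITGA6 and ITGA4 in 1 each, the fit with no library term. ITGB3 was -1.74 (adjusted p = 0.391) without cells that hold a cardiac or endothelium marker and -1.46 (adjusted p = 0.505) with classes from marker lists. Its neural levels at 7ss lay below those of free RNA, as given above. LAMA4, at 0 in the HH5 sums of both classes, did not pass, and with no HH5 counts the size of its difference cannot be read.

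**Figure D4:**
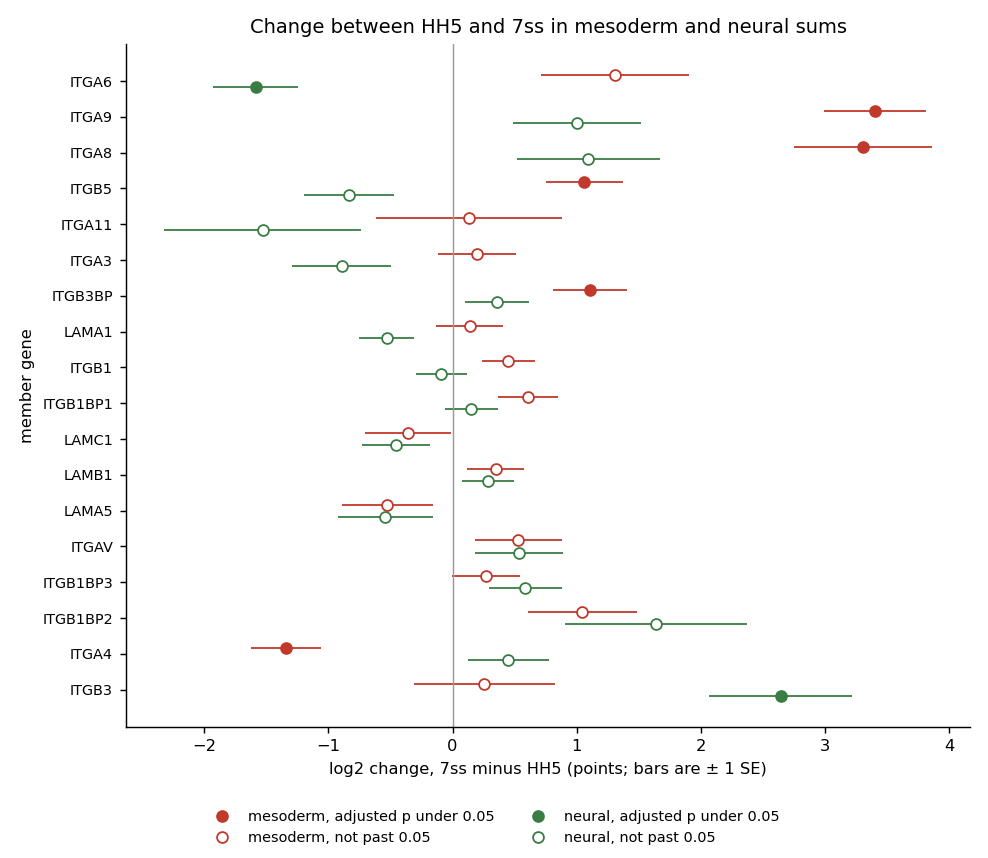
Change of 18 members tested in both classes (vertical axis), as the log2 difference 7ss minus HH5 (horizontal axis), in mesoderm (upper point of a pair) and neural sums (lower point). Bars are ± 1 SE and filled points have an edgeR adjusted p under 0.05. ITGA9 and ITGA8 have filled mesoderm points at 3.40 and 3.30, and ITGA6 and ITGB3 have filled neural points at -1.58 and 2.64. Members are ordered by the gap between the 2 classes, from mesoderm above neural at the top to the reverse at the bottom.

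In this test 8.18% of all genes had the higher change in mesoderm and 8.90% the lower. Of the partner lists, 6 ligands had the higher change in mesoderm and 1 the lower of 15 tested. The counts were 2 and 0 of 10 basement membrane partners, and 5 and 2 of 19 adaptors. COL3A1 (3.51), FBLN2 (2.23) and COL1A1 (1.88) led one side and TGFB2 (-2.08), CD151 (-1.26) and TLN2 (talin 2, -0.57) the other.

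HH11 was read in 1 library, so its values carry a counting interval (exact Poisson, 95%, which covers counting error only) and no test. It was made by another protocol, and its headers name another release of the counting program. Stage, protocol and library cannot be told apart. Mesoderm ITGA9 was 117 CPM (108 to 127), against 36.1 CPM at most in the earlier mesoderm sums. Mesoderm ITGA8 was 32.6 CPM (27.8 to 38.0), LAMA4 24.3 CPM (20.2 to 29.1), ITGB3 30.6 CPM (25.9 to 35.8) and ITGAV 46.5 CPM (40.7 to 52.8). All 5 lay above every earlier mesoderm sum. Neural crest markers were also higher in this mesoderm sum, at 416 CPM over the 9-gene crest list, against 143 to 237 CPM earlier, and their part in these levels was not tested. Non-neural ITGB3 was 65.2 CPM (55.4 to 76.3), LAMA1 75.6 CPM (65.0 to 87.5) and LAMB1 338 CPM (315 to 362), each above the earlier non-neural sums. That HH11 sum also held 676 CPM of the crest list, against 106 to 345 CPM earlier, and 394 CPM of the mesoderm list, against 17.3 to 112 CPM earlier, and their part in these levels was not tested. Neural ITGA6 was 15.9 CPM (13.1 to 19.1), below the 23.4 CPM of the lowest earlier neural sum, and neural ITGAV was 24.9 CPM (21.4 to 28.8), against at most 8.50 CPM before.

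The level of ITGB1BP3 stood apart between libraries of the same stage. In neural sums it had 1413 and 1015 CPM at HH5, 1035 and 1056 CPM at 1ss, 1080 and 1691 CPM at 4ss, 1753 and 1792 CPM at 7ss, and 1758 CPM at HH11. From HH5 to 7ss, mesoderm and non-neural sums had their higher values in the same 4 libraries as neural sums, HH5 replicate 1, 4ss replicate 2 and both of 7ss. Within libraries it was higher in mesoderm than in neural sums in 8 of 8 (0.32 ± 0.06, adjusted p = 0.00106). ITGB3BP lay between 10.0 and 23.4 CPM in neural sums and between 10.4 and 32.0 CPM in mesoderm sums, and did not differ past the threshold between these classes.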

How the data were processed

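Single cells of 9 chick libraries were sequenced on the 10x Genomics platform. The authors deposited UMI counts per gene and barcode, unnormalized, assigned by Cell Ranger (6.1.1 in the submitters' notes, 5.0.0 in the HH11 header) to the assembly GRCg6a with a custom annotation that extended the 3′ ends of some genes. The counts are not corrected for free RNA, and libraries hold 11104738 to 89386898 UMIs.

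Cells with 200 to 4000 genes and at most 40% mitochondrial UMIs were kept. The study states that limit as 0.4, which was read as a fraction. Doublets were scored against simulated doublets (scanpy 1.11.5) and the expected number removed, 0.8% per 1000 barcodes, 12697 in all. UMI counts were summed per library and marker class and tested with edgeR 4.0.16 in R 4.3.3 (TMM, expression filter, quasi-likelihood F test, 2-sided, Benjamini-Hochberg over all genes tested, threshold 0.05), with the library as a block between classes and stage as the factor within a class. All 4 stages from HH5 to 7ss entered the stage fits. The tests were also run on simulated counts that held no library effect, so that run does not cover differences between libraries. DESeq2 1.42.0, other size factors, filters, class definitions and left-out libraries were alternatives. Chi-square per gene between libraries of a stage was 31.4 to 350, so none was a copy.

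The members and partner lists were chosen with earlier results of these data known. Named are members past the threshold with at least 10 CPM in either group, members whose role a paragraph treats, and the 3 largest partner changes in each direction. Other genes were named after their values were seen. The files hold no gene coordinates, and no sequences are printed.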

Additional observations from a re-analysis of the deposited data

Results flagged for a closer look

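For 10 members the change from HH5 to 7ss differed between mesoderm and neural cells by the test of the difference itself. The log2 differences, mesoderm minus neural, were 2.81 for ITGA6, 2.34 for ITGA8, 2.20 for ITGA9, 1.83 for ITGB5, 0.95 for ITGA3, 0.66 for LAMA1 and 0.54 for ITGB1, and -2.49 for ITGB3, -1.53 for ITGA4 and -0.31 for ITGB1BP3. Of 18 alternatives, the call was lost in 13 for ITGB1BP3, 9 for ITGA3, 7 each for LAMA1 and ITGA8, 6 for ITGB3, 4 for ITGA9, 2 for ITGB1 and 1 each for ITGB5, ITGA6 and ITGA4, and the sign of ITGA8 turned in 1 more.

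The HH11 library entered no test. A level was flagged at 10 CPM or more if its counting interval lay wholly above 2 times the highest earlier value of its class. The rule was applied to the members in neural, non-neural and mesoderm cells, and not to all genes. It flagged 8 levels. They were 12.7 CPM of ITGA9 and 24.9 CPM of ITGAV in neural cells, 25.1 CPM of ITGA9, 30.9 CPM of ITGAV and 65.2 CPM of ITGB3 in non-neural cells, and 32.6 CPM of ITGA8, 117 CPM of ITGA9 and 30.6 CPM of ITGB3 in mesoderm cells. Free RNA of this library held 18.8 CPM of ITGA9, above its neural level and below its non-neural and mesoderm levels. The same library held 676 CPM of the crest list and 394 CPM of the mesoderm list in its non-neural sum, against 106 to 345 CPM and 17.3 to 112 CPM in earlier ones, and 416 CPM of the crest list in its mesoderm sum, against 143 to 237 CPM earlier. Their part in these levels was not tested.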

How the results depend on the processing

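Of 70 member calls, 21 were kept under every alternative run and 48 were lost in at least 1. Over 1115 alternative values, 921 kept the call, 190 lost it and 4 changed sign: LAMA5 in mesoderm minus neural (-0.36), ITGB3 in endoderm minus neural (-0.0345) and LAMB1 in endoderm minus mesoderm (-0.0492) with classes from marker lists, and ITGA8 in the difference of stage changes without HH5 replicate 1 (-4.14, where the values without any other single library reach 2.71). The cause was not tested.

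Replicate numbers did not pair libraries across stages (correlations of deviations -0.209 to 0.13). The library block between classes is the shared suspension. With no replicate block, 7 of 18 members (1824 of 9690 genes) passed for mesoderm, 6 of 15 (1206 of 8641) for endoderm, 5 of 16 (1019 of 9467) for non-neural and 3 of 20 (318 of 10153) for crest, all minus neural. For endoderm minus mesoderm they were 4 of 16 (615 of 8086), and for the difference of stage changes 0 of 23 (132 of 10962).

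The endoderm fits of these alternatives cover other libraries than the main 6. With 2 UMIs of the class marker, in 3 libraries, 4 of 15 members (944 of 8786 genes) passed for endoderm minus neural. For endoderm minus mesoderm they were 3 of 16 (704 of 7803). The same setting gave 1 of 20 members for the neural stage change and 6 of 20 for the difference of stage changes. The main fits called 852 of 11077 genes for the neural stage change and 1873 of 10962 for the difference. With marker lists the counts were 4 of 19 (1616 of 10073) for endoderm minus neural, in 8 libraries. They were 1 of 19 (549 of 10160) for the neural and 5 of 22 (988 of 10730) for the non-neural stage change, and 5 of 21 members for the difference. With at least 2000 UMIs per cell, in 4 libraries, they were 1840 of 9583 genes for endoderm minus neural and 4 of 17 members (1292 of 9005 genes) for endoderm minus mesoderm. With DESeq2 they were 4 of 20 (377 of 10153) for crest minus neural and 5 of 23 (789 of 10962) for the difference. Without low-count filtering 1877 of 14772, 1520 of 14206 and 1918 of 14446 genes passed for stage in neural, non-neural and mesoderm cells. With the term for the set of libraries 0 of 22 members (82 of 11633 genes), 1 of 16 (53 of 9849) and 3 of 20 (112 of 10406) passed. That neural fit had 1 member with an unadjusted p under 0.05. Leaving out cells that hold a cardiac or endothelium marker was an alternative chosen after seeing the data. It left out endoderm cells for an endothelium and blood marker only, not for a cardiac one. Then 4 of 13 members (1229 of 7603 genes) passed for endoderm minus mesoderm, in 5 libraries, and 6 of 20 (1182 of 9756) for the difference.

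Leaving out each replicate gave 12 to 15 members (3922 to 4522 genes) for mesoderm, 8 to 12 (1812 to 3119) for endoderm and 7 to 8 (3163 to 3797) for non-neural cells, all minus neural, and 7 to 9 (1239 to 2181) for endoderm minus mesoderm. For stage it gave 0 to 2 members (105 to 2325 genes) in neural, 2 to 3 (73 to 1486) in non-neural and 3 to 6 (203 to 2095) in mesoderm cells, and 4 to 11 (361 to 2537) for the difference. Gene counts for stage were highest without either 4ss library and lowest without a 7ss library, except for the difference of stage changes, which was lowest without HH5 replicate 1. A stage left with 1 library was assumed to vary like the others. Crest minus neural could not be run without a replicate, since it has 2 libraries, or with 2 UMIs, since 1 of them then held 25 cells. Small endoderm and crest sums, from 317274 UMIs, limit members near 5 CPM to a few UMIs each.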

Other observations

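When cells were classed by 2 or more markers of a list in place of FOXD3, the crest class held 105 and 217 cells in the 4ss libraries, 500 and 768 in the 7ss libraries and 750 in the HH11 library. Its ITGB3 level was 3.81 and 8.24 CPM at 4ss, 25.1 and 37.2 CPM at 7ss and 137 CPM (exact Poisson 95% interval 127 to 148) at HH11, against 2.86 and 7.02, 7.35 and 5.98, and 4.73 CPM in neural cells classed the same way. ITGA4 was 33.0 and 23.0 CPM at 4ss, 47.9 and 48.9 CPM at 7ss and 50.4 CPM at HH11 in crest cells, against 29.9 and 19.9, 13.1 and 16.1, and 7.50 CPM in neural cells. ITGA9 in crest cells had 2 and 3 UMIs at 4ss, 6.33 and 8.81 CPM at 7ss and 50.4 CPM at HH11, against 2.60 and 2.31, 1.67 and 4.03, and 10.3 CPM in neural cells. ITGA6 in crest cells was 69.9 and 26.5 CPM at 4ss, 6.33 and 9.53 CPM at 7ss and 21.3 CPM at HH11, against 103 and 51.4, 34.4 and 26.5, and 17.4 CPM in neural cells. Crest ITGA6 thus lay below neural ITGA6 in each 4ss and 7ss library but not at HH11. LAMA5 was 10.1 CPM in crest cells at HH11, against 15.7 CPM in neural cells, whereas both 7ss libraries had more in crest cells (13.2 and 14.2 CPM, against 4.17 and 4.84 CPM). At 4ss the crest and neural levels of ITGB3 and ITGA4 had overlapping counting intervals, and at 7ss and HH11 the intervals did not overlap. These values are descriptions of single libraries with no test.

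The FOXD3 cells of HH5 replicate 1, which carried notochord and node markers, had 86.8 CPM of ITGA6 and 2.71 CPM of ITGB3, against 3.73 to 9.58 CPM of ITGA6 and 26.1 to 38.9 CPM of ITGB3 in the FOXD3 cells at 7ss.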
